A study of Bos taurus with 52 samples.

Results

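RNA sequencing was done on cattle conceptuses at day 17 of pregnancy, and the libraries compared here were the 10 from subfertile (SF) heifers and the 7 labelled short from high-fertile (HF) heifers. They make up 17 of the 52 libraries of the series, and both groups were chosen by the labels for tissue, fertility class and conceptus size. The series also holds 10 long HF conceptuses and endometrium of both classes and of infertile heifers. Each conceptus came from a pregnant heifer, called its recipient here, and the labels give both groups as pregnant heifers with no treatment, breed or genotype that sets them apart. The short and long classes were applied to HF conceptuses only, so SF conceptuses have no size class. The 10 SF libraries came from 7 recipients, of which 3 gave 2 conceptuses, and the 7 HF short libraries came from 6 recipients, of which 1 gave 2. Counts were therefore summed over the conceptuses of a recipient, and the comparison was of 7 SF against 6 HF short recipients.

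At this stage the ruminant conceptus is a filament that elongates in the uterine lumen before it attaches. Most of it is trophectoderm, the outer epithelium that secretes interferon tau, the signal that maintains the corpus luteum, together with pregnancy-associated glycoproteins and prostaglandins. The hypoblast lines the inside of the trophectoderm and forms the yolk sac endoderm, which makes apolipoproteins and basement membrane proteins, and the epiblast gives rise to the embryo proper. Elongation depends on lipids, amino acids and glucose from the uterus.

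The 2 groups overlapped in length. A length was given for 9 SF conceptuses (1.5 to 14 cm after rounding, median 4 cm) and for 6 HF short ones (1.2 to 6.9 cm, median 2.15 cm). Total counts ran from 20549492 to 46966995 per SF library and from 27074473 to 39529640 per HF short library, with 18818 to 22694 and 20141 to 21547 genes detected. The sample numbers in the descriptions ran in 2 series, and the second held 3 SF and 4 HF short libraries. The series was therefore a covariate in the fit. The second series held SF recipients 690, 782 and 903 and HF recipients 753, 971 and 985. SF recipient 690 had a conceptus in the first series as well. Lengths in the second series were 1.5 to 4 cm in SF and 1.2 to 2.8 cm in HF short. Fits within a series thus rest on few recipients and are not separate from length. In 15 of the 17 libraries the title and the description disagreed on the animal or its conceptus length, and in 5 of these the description's animal was of the other fertility class. The columns of the count table carried the titles, which were used for group, recipient and length. The numbering series came from the descriptions, so it may be wrong for a library whose labels disagree. This limit holds for the covariate and for every fit within a series.

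The conceptus label was borne out by trophectoderm products. The 33 genes of trophoblast secreted products summed to 18490 to 61210 CPM (counts scaled by library size) in SF recipients and 15160 to 79790 CPM in HF short recipients, and 26 keratin and junction genes summed to 18960 to 38770 CPM and 18000 to 34720 CPM. Markers of other cells were low. Of 20 uterine transcripts PAEP was at 0 in every recipient, and their sum was 9.23 to 290.0 CPM in SF and 8.11 to 812 CPM in HF short recipients, mostly GRP (up to 175 and 665 CPM) and MUC16 (up to 70.4 and 125 CPM). The 29 immune cell markers summed to 10.8 to 45.9 CPM and 13.1 to 77.6 CPM. Of 9 red blood cell markers HBA was at 0 throughout, and the sum, 1.79 to 65.6 CPM and 1.73 to 29.5 CPM, was mostly ALAS2. The part of these cells in the results was not tested, and in whole conceptuses fewer cells of a type cannot be told apart from less RNA per cell. Transcripts of 3 Y-linked genes (DDX3Y, UTY and EIF2S3Y) were present above 10 CPM in 6 of 10 SF and 4 of 7 HF short libraries.

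Conceptuses of 1 recipient were closer to each other than the median pair of conceptuses of different recipients in their group. The median absolute log2 difference over genes was 0.21 between the conceptuses of SF recipient 778 (4 and 7 cm), 0.34 for recipient 690 (4 and 5 cm), 0.40 for recipient 755 (4 and 14 cm) and 0.34 (0.345) for HF recipient 753 (1.2 and 1.5 cm). Between different SF recipients it had a median of 0.43 (0.28 to 0.63, 42 pairs), between different HF short recipients 0.51 (0.30 to 0.63, 20 pairs), and between an SF and an HF short conceptus 0.46 (0.25 to 0.68, 70 pairs). SF and HF short conceptuses were thus about as far apart as conceptuses of different recipients within a group. The correlation within recipients, estimated over all genes, was 0.37. The 755 pair held 1 library with Y-linked transcripts and 1 without.

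**Figure D1:**
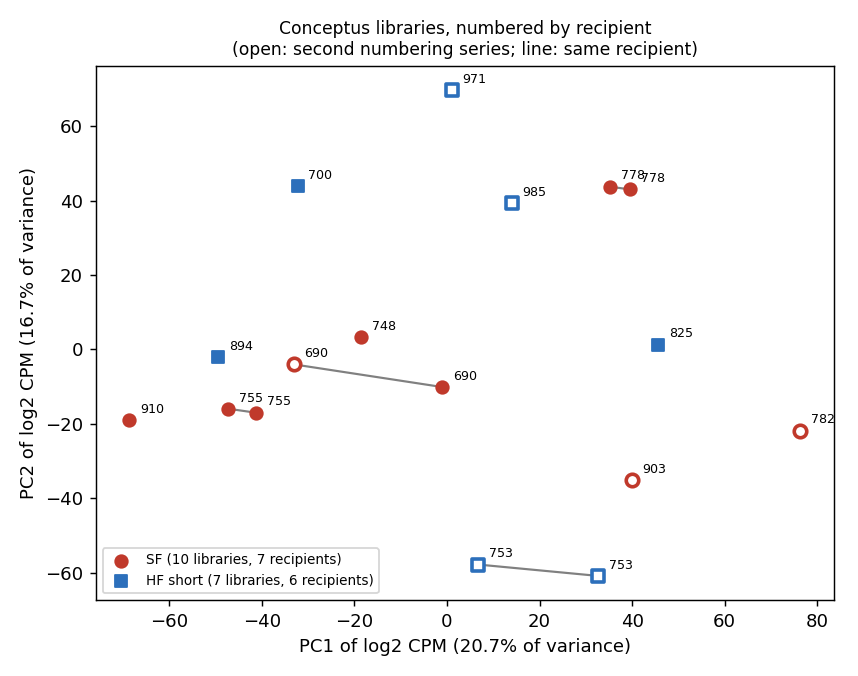
First and second principal components of log2 CPM (20.7% and 16.7% of the variance) for 10 SF libraries (red circles) and 7 HF short libraries (blue squares), labelled by recipient, with a grey line between conceptuses of 1 recipient and open symbols for the second numbering series. SF and HF short libraries lie among each other on both axes, while the conceptuses of recipients 778 and of 755 lie close together and those of 690 and 753 farther apart.

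No gene was called between SF and HF short conceptuses. The edgeR quasi-likelihood test called 0 of 15692 genes (0%) at an adjusted p under 0.05, and the smallest adjusted p was 0.344. The unadjusted p was under 0.05 in 1303 genes (8.3%), 626 of them higher (3.99%) and 677 lower (4.31%) in SF, and the median log2 fold change over all genes was -0.02. DESeq2, run on the same sums and covariate, called 137 of the 12967 genes to which it gave an adjusted p (1.06%), 98 higher (0.756%) and 39 lower (0.301%), and all of these had an unadjusted edgeR p under 0.05 and the same sign. The median 95% interval reached 0.49 to either side of a gene's log2 fold change, so differences smaller than this were not resolved for the typical gene. This interval is not adjusted for the number of genes, and larger differences were not called either. The log2 fold change was at least 1 in size in 758 genes. In 39 genes (0.249%) the values of the 7 SF and 6 HF short recipients did not overlap, with SF above in 21 (0.134%) and below in 18 (0.115%). Differences below are therefore given as values of genes that edgeR did not call. Values after ± are standard errors of log2 fold changes (SF minus HF short) unless SD is written, and p-values are edgeR's unadjusted ones. These standard errors were derived from the fold change and its quasi-likelihood test statistic, and the 95% intervals were built on them. Of the 20 genes named by smallest p, all were called by DESeq2 and 9 had no overlap between the groups. These genes were picked by edgeR's p from the same recipient sums, so neither count is separate support for them.

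PRDX6, a peroxidase that reduces phospholipid hydroperoxides, had the smallest p. Its lowest, median and highest values were 358, 466 and 647 CPM in SF recipients and 204, 232 and 322 CPM in HF short recipients. Every SF recipient was above every HF short recipient, at 479 ± 108 CPM (SD, n = 7) against 245 ± 43.7 CPM (SD, n = 6), a difference of 0.96 ± 0.17 with an edgeR unadjusted p of 7.51e-05. It was 0.95 within the first numbering series, 0.87 within the second and 0.92 with length as a covariate. Among single conceptuses the 5 cm one of SF recipient 690 (312 CPM) was below the 1.2 cm one of HF recipient 753 (355 CPM), and every other SF conceptus was above every HF short one.

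FETUB, a secreted protease inhibitor of the fetuin family made by liver and yolk sac endoderm, and SERPINF2, the plasmin inhibitor, are other secreted products among the higher genes. FETUB ranged from 187 to 848 CPM (median 541) in SF and from 118 to 352 CPM (median 164) in HF short recipients, a difference of 1.49 ± 0.32. SF recipient 910 was lowest in its group and lay inside the HF short range. SERPINF2 ranged from 3.39 to 21.4 CPM (median 12.3) in SF and from 2.66 to 5.39 CPM (median 3.95) in HF short recipients (1.62 ± 0.34), again with recipient 910 lowest in SF. The count table lists APOB, the structural apolipoprotein of secreted lipoprotein particles, under 2 entries whose reads could be split between them. APOB-2 was at 0.689 to 27.8 CPM in SF and 0.569 to 1.87 CPM in HF short recipients (3.13 ± 0.65), and APOB at 0.212 to 7.10 CPM and 0.0949 to 0.685 CPM (2.86 ± 0.71). Both entries were thus higher in SF, and both had recipient 910 inside the HF short range.

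A long non-coding RNA of the imprinted DLK1-DIO3 domain was among the named genes with higher values in SF. LOC100847413, which carries the gene ID of the long non-coding RNA MEG8, was at 8.42, 19.5 and 122 CPM (lowest, median and highest) in SF and 1.3, 3.35 and 6.35 CPM in HF short recipients. The groups did not overlap (3.02 ± 0.64), and recipient 903 was far above the other SF recipients. RTL1, a retrotransposon-derived gene of the same domain, was at 0.318 to 6.05 CPM in SF and 0 to 0.261 CPM in HF short recipients (3.22 ± 0.75), also without overlap and also with recipient 903 highest. It was at 2.07 within the first numbering series and 4.42 within the second, and MEG8 at 1.83 and 4.47. With each recipient left out in turn MEG8 stayed between 2.44 and 3.4, and RTL1 between 2.63 and 3.83. RTL1 lies below the mean of 5 CPM set for named genes and is given as a list member, chosen after its values were seen. Of the other 19 tested imprinted genes, DLX5 (-1.08 ± 0.34) had a p under 0.05.

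The remaining named genes that were higher in SF were a mixed group. C2H2orf72, a gene of unknown function, had no overlap (21.0 to 34.2 CPM against 9.51 to 20.6 CPM, 0.86 ± 0.18), nor had LOC513767, a protein-coding gene without a symbol (20.9 to 25.2 CPM against 9.99 to 18.7 CPM, 0.69 ± 0.15). FLRT3, a membrane protein that binds fibroblast growth factor receptors and latrophilins, was at 53.6 to 169 CPM against 38.2 to 62.5 CPM (1.06 ± 0.22). KCNA6, a voltage-gated potassium channel, was at 4.29 to 20.7 CPM against 1.82 to 7.81 CPM (1.75 ± 0.36), and the pseudogene LOC786533 at 5.16 to 12.8 CPM against 3.16 to 5.17 CPM (0.97 ± 0.21). In FLRT3 and KCNA6 SF recipient 910 was lowest of its group, as in 6 of the 10 named genes that were higher in SF.

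FOXO4, a forkhead transcription factor restrained by insulin signalling, had the smallest p among the genes lower in SF. Its lowest, median and highest values were 0.377, 0.837 and 1.55 CPM in SF and 1.73, 4.37 and 22 CPM in HF short recipients. The groups did not overlap, the difference was -2.48 ± 0.48, and HF recipient 971 was far above the rest. Within the first numbering series it was -1.70 and within the second -3.51. USP22, the ubiquitin protease of the SAGA transcription complex, was at 101 to 124 CPM (median 115) in SF and 138 to 232 CPM (median 151) in HF short recipients (-0.50 ± 0.12). BLCAP was at 17.7 to 21.8 CPM and 24.1 to 29.8 CPM (-0.41 ± 0.10), RNF185, a ubiquitin ligase of the endoplasmic reticulum, at 14.6 to 18.7 CPM and 20.5 to 25.4 CPM (-0.44 ± 0.11), and C2CD2 at 20.4 to 33.7 CPM and 33.9 to 53.4 CPM (-0.70 ± 0.16). None of these 4 overlapped between the groups, and the differences were small in size beside those of FOXO4.

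Other lower genes act in signalling and in metabolism. MYD88, the adaptor of Toll-like receptors, was at 10.9 to 16.1 CPM in SF and 15.5 to 29.7 CPM in HF short recipients (-0.69 ± 0.17). GK, glycerol kinase, was at 4.26 to 7.84 CPM and 7.18 to 15.3 CPM (-0.93 ± 0.19), and NMRK1, which makes the NAD precursor nicotinamide mononucleotide, at 6.61 to 11.4 CPM and 9.05 to 24.1 CPM (-1.09 ± 0.24). RNASET2, a lysosomal ribonuclease, was at 7.58 to 16.9 CPM and 13.3 to 24.8 CPM (-0.89 ± 0.18), and OLFML2A, an extracellular matrix protein, at 0.265 to 1.77 CPM and 0.843 to 15.1 CPM (-2.24 ± 0.53). In these 5 the ranges overlapped, with at most 4 of the 42 pairs of an SF and an HF short recipient ordered against the difference.

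**Figure D2:**
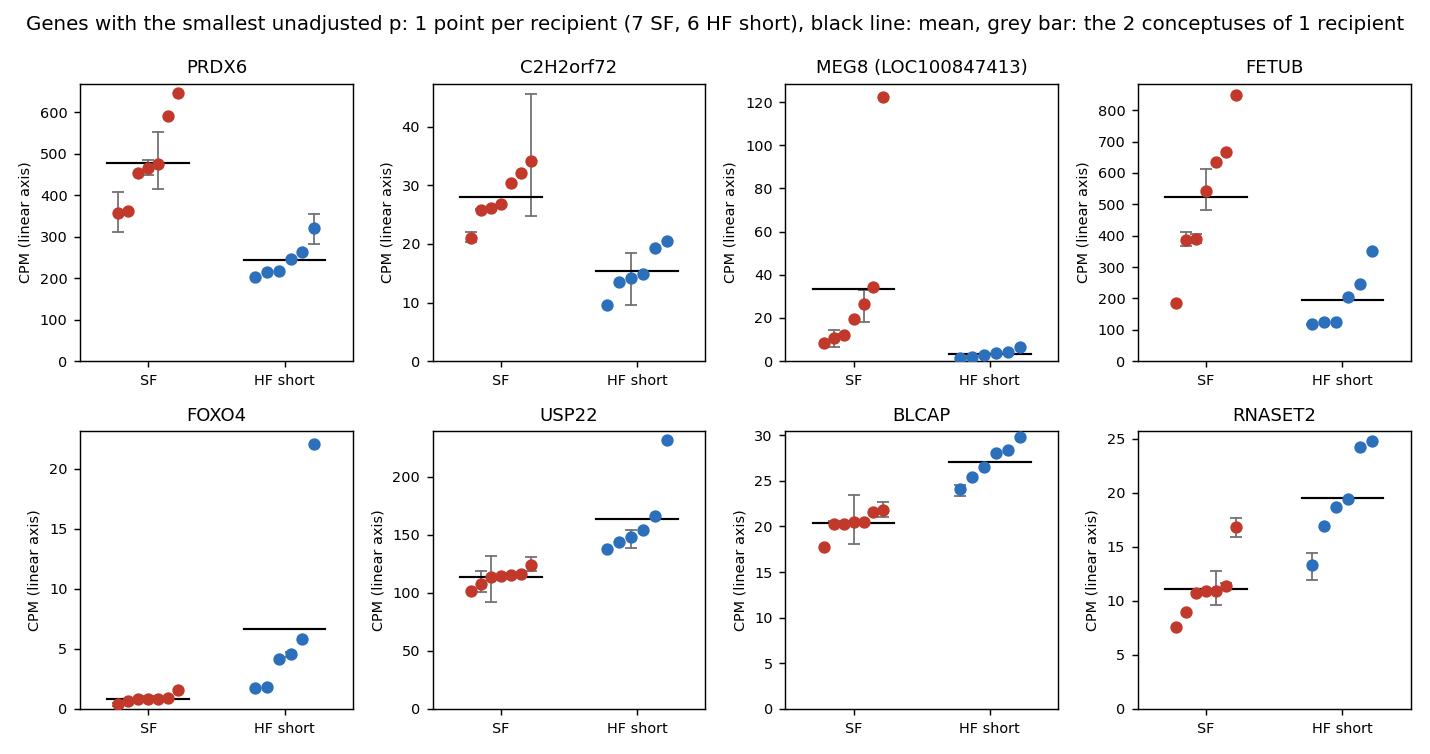
CPM of 8 named genes, with 1 point per recipient (7 SF in red, 6 HF short in blue), ordered by value, the group mean as a black line and the single conceptuses of a recipient that gave 2 as the ends of a grey bar. Values of PRDX6, C2H2orf72 and MEG8 in SF lie above, and those of FOXO4, USP22 and BLCAP below, all HF short recipients, while FETUB and RNASET2 overlap; single conceptuses were scaled together with the long HF libraries.

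The gene lists were chosen with earlier results of these data known, so their counts beside all genes are descriptions and no tests. Hypoblast and visceral endoderm genes were the list with the most members toward SF. Of 41 tested members edgeR called 0 (DESeq2 called 3, APOB, FOXA3 and HNF4A), 34 had positive fold changes, and 10 were higher and 0 lower at an unadjusted p under 0.05, where all genes had 3.99% and 4.31%. The median was 0.60, against -0.02 over all genes. It was 0.59 within the first numbering series and 0.34 within the second, 0.49 with length as a covariate and 0.52 in the same 11 recipients without it. With each recipient left out it stayed between 0.42 and 0.69, and 10 to 14 members were higher at that p. Within the first series 7 members were higher and 0 lower at that p, and within the second 4 were higher and 1 lower.

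The transcription factors HNF4A and FOXA3, which drive apolipoprotein genes in liver and yolk sac endoderm, were among them. HNF4A was at 18.5 to 58.6 CPM (median 36.6) in SF and 16.8 to 30.5 CPM (median 21.1) in HF short recipients (0.80 ± 0.22), and FOXA3 at 3.39 to 7.53 CPM and 1.74 to 3.71 CPM (0.95 ± 0.24). Genes of lipoprotein assembly followed the same order. MTTP, which loads lipid onto apolipoprotein B, was at 8.97 to 21.5 CPM in SF and 3.04 to 12.4 CPM in HF short recipients (1.09 ± 0.32). A second entry, MTTP-2, had means of 7.13 CPM in SF and 3.05 CPM in HF short recipients (log2 fold change 1.25). Reads could be split between the entries, and DESeq2 called MTTP-2 but not MTTP. APOE, a lipoprotein ligand of lipid uptake receptors, was at 147 to 452 CPM and 54.8 to 243 CPM (0.90 ± 0.33). Basement membrane genes were the third set. FN1, fibronectin, was at 1428 to 6459 CPM in SF and 1247 to 4051 CPM in HF short recipients (0.79 ± 0.30), and the laminin chains LAMA1 (0.70 ± 0.26) and LAMB1 (0.46 ± 0.15) and nidogen NID1 (0.74 ± 0.25) were higher with overlap.

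Recipient 910 was the lowest SF recipient in 9 of these 10 genes and recipient 782 the highest in 6. Transcription factors that specify the hypoblast did not follow. GATA6 was at 12.4 to 33.1 CPM in SF and 14.5 to 44.6 CPM in HF short recipients (-0.08 ± 0.17, 95% interval -0.44 to 0.29), GATA4 at 0.04 ± 0.32 (-0.65 to 0.74) and SOX17 at 0.04 ± 0.46 (-0.96 to 1.03). The intervals of GATA4 and SOX17 reach a difference as large as that of LAMA1.

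Trophectoderm transcription factors leaned the other way. Of 34 tested members edgeR and DESeq2 called 0, and 9 were lower and 0 higher at an unadjusted p under 0.05. The list's median was -0.19, with -0.12 and -0.24 within the 2 numbering series. It was -0.14 with length as a covariate and -0.21 in the same 11 recipients without it. Within the first series 5 members were lower and 3 higher at that p. The 9 were HAND1, DLX6, TP63, DLX5, GATA3, TBX3, MSX2, DLX3 and YAP1. GATA3, a trophectoderm lineage factor, was at 31.4, 46.6 and 56.9 CPM (lowest, median and highest) in SF and 54.3, 73.1 and 236 CPM in HF short recipients (-0.94 ± 0.28). TBX3 was at 21.8 to 50.2 CPM and 31.6 to 96.4 CPM (-0.94 ± 0.27), and MSX2, a homeobox gene of the BMP pathway, at 7.52 to 16.0 CPM and 13.49 to 45.2 CPM (-0.86 ± 0.26). In these 3 the ranges overlapped, with 2 to 5 of the 42 recipient pairs ordered against the difference.

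HAND1, which promotes trophoblast differentiation and also marks extraembryonic mesoderm, differed more widely: it was at 1.27 to 17.8 CPM (median 6.05) in SF and 5.13 to 209 CPM (median 32.6) in HF short recipients (-2.56 ± 0.85). TP63, a factor of basal epithelium, was at 7.38 to 18.3 CPM and 10.5 to 88.3 CPM (-1.38 ± 0.43), and YAP1, the effector of Hippo signalling, at 208 to 323 CPM and 303 to 589.6 CPM (-0.45 ± 0.17, and -0.30 without HF recipient 985). HF recipient 985, with a conceptus of 1.3 cm, was the highest HF short recipient in all 9 genes. With each recipient left out in turn 7 to 10 members were lower and 0 to 3 higher at that p, and HAND1 ranged from -3.26 to -1.89. CDX2 (0.26 ± 0.21, 95% interval -0.20 to 0.73) and TFAP2C (-0.18 ± 0.17, -0.54 to 0.18), further trophectoderm factors, had intervals that span 0.

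**Figure D3:**
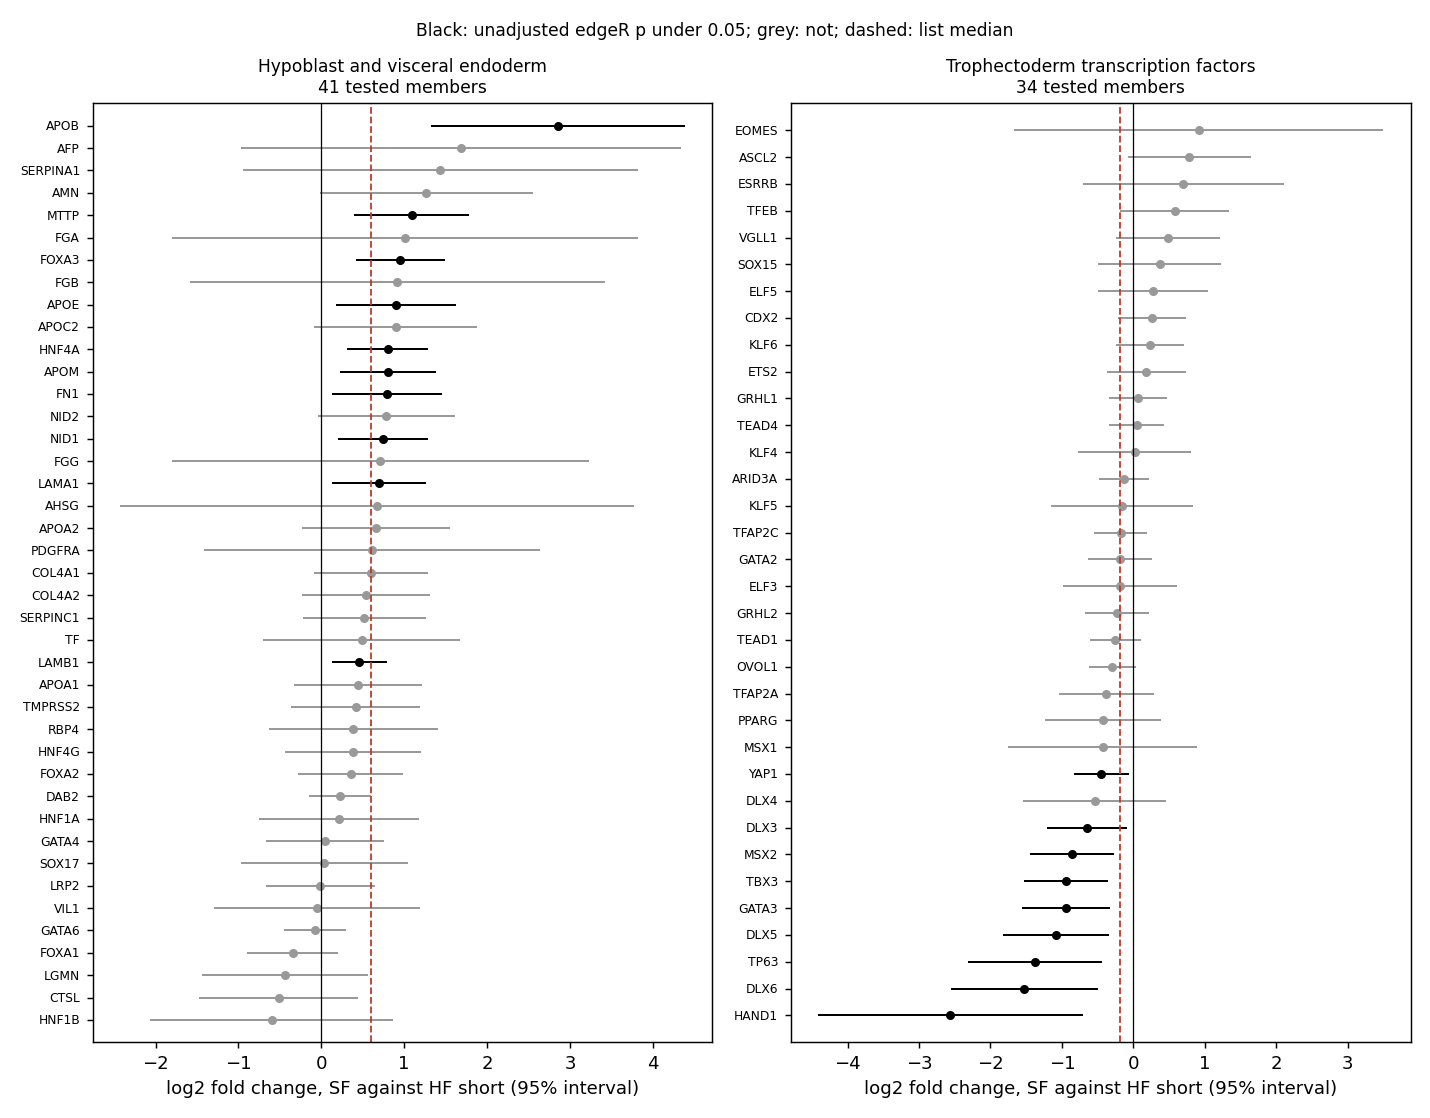
Log2 fold change with its 95% interval for every tested member of 2 lists, 41 hypoblast and visceral endoderm genes (left) and 34 trophectoderm transcription factors (right), black where the unadjusted edgeR p is under 0.05. In the left list 34 of 41 points lie above 0 and its median (dashed) is 0.60, while in the right list all 9 black points lie below 0 and the median is -0.19.

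Secreted products of the trophectoderm showed wide spread within each group. IFNT2, an interferon tau gene with near-identical copies whose reads could be split, was at 1762, 4202 and 8415 CPM (lowest, median and highest) in SF and 1196, 9215 and 15100 CPM (15099.6) in HF short recipients. The difference of -0.85 ± 0.48 had a 95% interval of -1.89 to 0.18, which includes 0. TKDP1, a trophoblast Kunitz protein and one of the most abundant transcripts, was at 9110 to 35525 CPM and 6034 to 44109 CPM (-0.38 ± 0.34), and PAG2, a pregnancy-associated glycoprotein, at 297 to 2727 CPM and 327 to 3197 CPM (-0.51 ± 0.43). PTGS2, the prostaglandin synthase of elongating conceptuses, was at 1044 to 3091 CPM and 1135 to 6911 CPM (-0.87 ± 0.38, and -0.48 without HF recipient 985).

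Of 13 tested members of the secreted product list 1 was higher and 1 lower at an unadjusted p under 0.05, and edgeR called 0. The higher one was CGA, the alpha subunit of glycoprotein hormones (5.07 ± 1.81, called by DESeq2). CGA was at 109.9 CPM in SF recipient 748 and 64.6 CPM in recipient 778, at 0.424 to 8.73 CPM in the other 5 SF recipients, and at 0 to 2.38 CPM in HF short recipients. Its high values thus came from 2 of 7 SF recipients, and both conceptuses of recipient 778 had them (60.5 and 68.2 CPM). Those of recipient 755 differed (0.491 and 10.9 CPM). Recipients 748 and 778 were in the first numbering series only, and the CGA difference was 8.22 within that series and 1.66 within the second. The lower member of the list was TKDP2 (-1.70 ± 0.70). HSD3B1, a steroid dehydrogenase of progesterone synthesis, was at 24.7 to 211 CPM and 21.0 to 63.2 CPM (0.98 ± 0.44), with SF recipient 903 highest and a difference of 0.43 without it.

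Among the embryonic lineages, epiblast and nodal pathway genes had 2 of 14 members higher and 0 lower at an unadjusted p under 0.05, and a median of 0.47. TDGF1, the nodal co-receptor, was at 16.4 to 133 CPM in SF and 2.70 to 37.2 CPM in HF short recipients (1.6 ± 0.60), and LIN28B, an RNA-binding protein of pluripotent cells, at 23.5 to 68.9 CPM and 12.5 to 46.2 CPM (0.70 ± 0.26). The median was 0.06 within the first numbering series and 0.75 within the second. Without SF recipient 782 it was 0.20 and without HF recipient 825 it was 1.06.

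Of 46 tested fatty acid and cholesterol synthesis genes edgeR called 0, and 6 were higher and 3 lower at an unadjusted p under 0.05, with a median of 0.16. With each recipient left out 5 to 12 were higher, the most without HF recipient 985, and 1 to 4 lower. ELOVL6, which elongates saturated and monounsaturated fatty acids, was at 806, 900.4 and 1363 CPM (lowest, median and highest) in SF and 470 (469.9), 622 and 710.0 CPM in HF short recipients. The groups did not overlap (0.68 ± 0.16). ELOVL7 was at 1.02 ± 0.33, and FDPS (0.46 ± 0.14), FDFT1 (0.53 ± 0.20), HMGCS1 (0.69 ± 0.28) and MVK (0.47 ± 0.19), enzymes of the mevalonate and sterol pathway, made up the rest of the higher members. The lower members were ELOVL5 (-1.29 ± 0.43), FADS1 (-1.01 ± 0.44) and ELOVL4, of which the former pair makes long polyunsaturated fatty acids. ELOVL5 was at 85.7 to 235 CPM in SF and 62.7 to 602 CPM in HF short recipients.

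Lipid uptake and storage genes had 2 of 40 members higher and 4 lower at that p. FABP3, a cytosolic fatty acid carrier, was at 187 to 586 CPM (median 355) in SF and 162 to 282 CPM (median 209.9) in HF short recipients (0.83 ± 0.20). GPAM, which starts triglyceride synthesis, was at 29.0 to 73.2 CPM and 56.0 to 128 CPM (-0.98 ± 0.25), and SLC27A1, a fatty acid transporter, at 1.64 to 5.60 CPM and 4.21 to 23.3 CPM (-1.33 ± 0.38). DESeq2 called these 3. Among sugar genes GBE1, the glycogen branching enzyme, was at 48.2 to 113 CPM and 34.03 to 61.2 CPM (0.79 ± 0.19), 1 of 2 higher members against 3 lower of 41 in the glycolysis list. SLC2A2, a low-affinity glucose transporter of hepatic and yolk sac endoderm that was in no list and was chosen after its values were seen, was at 9.59 to 50.9 CPM in SF and 0.915 to 7.74 CPM in HF short recipients (2.04 ± 0.47), without overlap. Amino acid transporters had 5 of 29 members higher and 3 lower, led by SLC38A5, a glutamine transporter (1.71 ± 0.51), and 3 were higher without SF recipient 782 or 903.

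Antioxidant and heme genes had 6 of 36 members higher and 2 lower at an unadjusted p under 0.05, PRDX6 among them, and a median of 0.09. GPX3, the secreted glutathione peroxidase, was at 17.4 to 95.5 CPM in SF and 10.9 to 31.3 CPM in HF short recipients (1.06 ± 0.28), and GPX1 at 76.1 to 175 CPM and 56.7 to 124 CPM (0.59 ± 0.22). HMOX1, heme oxygenase, was at 10.5, 214 and 788 CPM (lowest, median and highest) in SF and 6.002, 20.7 and 112 CPM in HF short recipients (2.69 ± 0.85). In 5 of 7 SF recipients it was above every HF short recipient, and recipients 748 and 910 were not. Both conceptuses of recipients 690, 755 and 778 had high HMOX1 (162 to 361 CPM), whereas the pair from HF recipient 753 was at 4.46 and 7.45 CPM.

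Genes of the extracellular matrix and of lysosomal proteases also had more members higher than lower in SF at an unadjusted p under 0.05. All genes had 3.99% higher and 4.31% lower at that p, with a median of -0.02. Of 50 matrix and adhesion genes 9 were higher and 1 lower at that p (median 0.07), and 4 of the higher ones are shared with the hypoblast list. PLAU, the urokinase plasminogen activator, was at 39.5 to 176 CPM in SF and 24.3 to 53.4 CPM in HF short recipients (1.44 ± 0.38), SPARC at 76.6 to 265 CPM and 40.9 to 140 CPM (1.01 ± 0.31), COL18A1 at 121 to 239 CPM and 59.1 to 170 CPM (0.80 ± 0.24), and LGALS3 at 728 to 1979 CPM and 396 to 910 CPM (0.79 ± 0.26). Without HF recipient 825 the median of this list was 0.45 and 16 members were higher, and without SF recipient 910 14 were higher. Of 34 endolysosomal genes 6 were higher and 0 lower at that p (median 0.05), with CTSC (0.52 ± 0.12) and CTSH (0.78 ± 0.25), both cathepsins. In this list 3 were higher without SF recipient 782 or HF recipient 985. Within the second numbering series 3 were higher and 2 lower, with a median of -0.10.

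**Figure D4:**
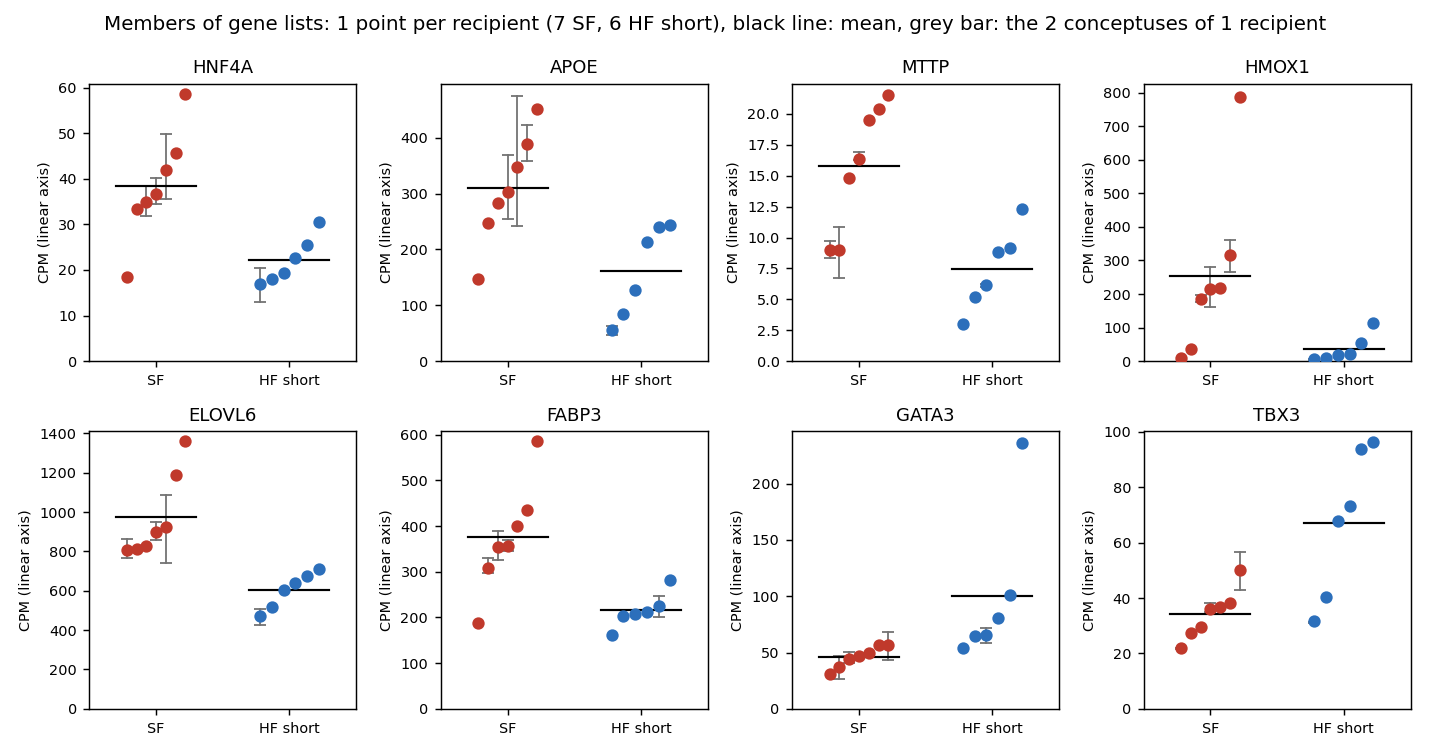
CPM of 8 members of the gene lists, with 1 point per recipient (7 SF in red, 6 HF short in blue), ordered by value, the group mean as a black line and the single conceptuses of a recipient that gave 2 as the ends of a grey bar. ELOVL6 does not overlap between the groups, HMOX1 spans 10.5 to 788 CPM within SF, and GATA3 and TBX3 are lower in SF with overlap.

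Genes of endoplasmic reticulum (ER) stress, apoptosis and p53 leaned lower in SF. Of 48 tested members edgeR and DESeq2 called 0, 34 had negative fold changes, and 10 were lower and 0 higher at an unadjusted p under 0.05. The median was -0.23, with -0.22 and -0.12 within the 2 numbering series. It was -0.19 with length as a covariate and -0.19 in the same 11 recipients without it. EDEM1, which hands misfolded glycoproteins to degradation, was at 86.4 to 135 CPM in SF and 124 to 216 CPM in HF short recipients (-0.47 ± 0.14), and PDIA3, a disulfide isomerase, at 254 to 368 CPM and 300.4 to 683 CPM (-0.52 ± 0.18). CALR, the chaperone calreticulin, was at -0.33 ± 0.15. With each recipient left out 5 to 12 were lower, with 5 without SF recipient 748, SF recipient 903 or HF recipient 700 and 6 without 755, 782, 894 or 985. Within the first numbering series 2 members were lower and 2 higher at that p. With length as a covariate 4 were lower and 1 higher, and in the same 11 recipients without it 5 were lower and 0 higher.

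Growth factors and receptors had 9 of 63 members lower and 1 higher at that p. With each recipient left out 2 to 13 were lower, the fewest without HF recipient 700, and 1 to 5 higher, the most without HF recipient 825. TGFB3 was at 0.616 to 3.44 CPM in SF and 2.67 to 19.5 CPM in HF short recipients (-1.77 ± 0.52, and -1.04 without HF recipient 700), EGFR, the epidermal growth factor receptor, at 45.5 to 71.7 CPM and 63.7 to 122 CPM (-0.41 ± 0.14), and IL6ST, the shared receptor of the interleukin 6 family, at 41.3 to 101 CPM and 67.2 to 169 CPM (-0.70 ± 0.25). The median of this list was -0.20 and moved to 0.04 without HF recipient 825. EPAS1, a hypoxia-inducible factor, was at 36.8 to 98.6 CPM and 71.0 to 358 CPM (-1.03 ± 0.39), with HF recipient 825 at 358 CPM and a difference of -0.38 without it, in a hypoxia list with 2 of 29 members higher and 2 lower.

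Interferon-stimulated genes had 3 of 45 members higher and 1 lower at that p, with a median of -0.31 that was 0.98, with 12 members higher, without HF recipient 825, and -0.81 and 0.36 within the 2 numbering series. TAP1, a peptide transporter of antigen presentation, was at 49.5 to 151 CPM in SF and 18.1 to 70.1 CPM in HF short recipients (1.02 ± 0.32). The respiratory chain (0 higher and 1 lower of 68, median -0.02), the cell cycle (1 and 1 of 48, median -0.04) and keratins and epithelial junctions (1 and 0 of 25, median 0.03) held a smaller share of members at that p than all genes together (8.3%). Mesoderm genes had 0 higher and 2 lower of 19, blood and vessel precursor genes 0 of 9 in either direction, prostaglandin and steroid genes 2 and 2 of 31, and binucleate trophoblast genes 1 and 0 of 11. Immune cell markers had 1 and 1 of 8, uterine transcripts 0 and 1 of 10, and red blood cell markers 0 of 2.

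**Figure D5:**
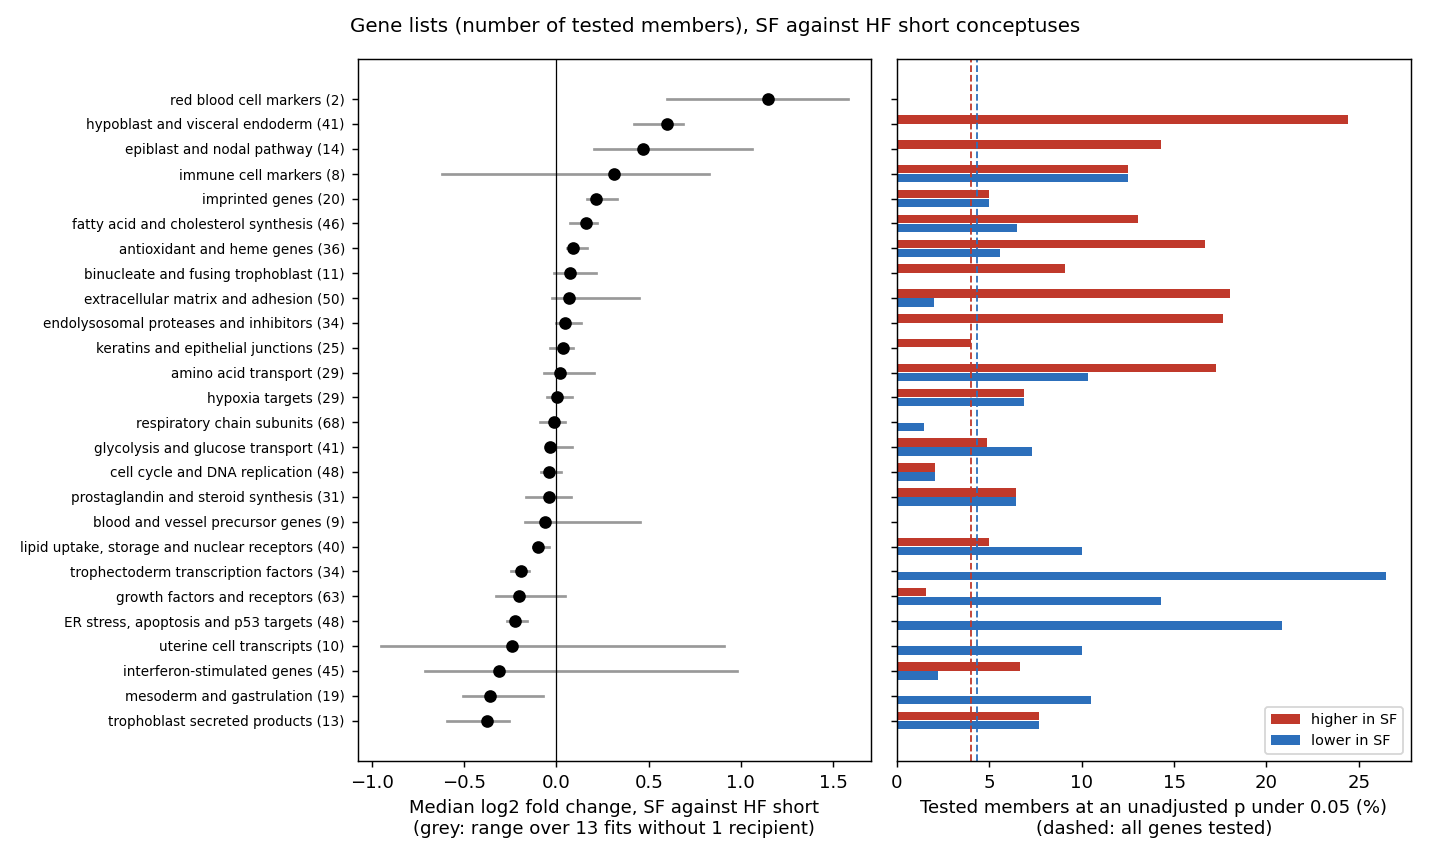
Left: median log2 fold change (SF against HF short) of the tested members of 26 gene lists, with a grey line for the range over 13 fits that leave out 1 recipient each. Right: percent of tested members at an unadjusted edgeR p under 0.05, higher (red) or lower (blue) in SF, with the percent over all genes dashed (3.99% and 4.31%). Hypoblast genes and trophectoderm transcription factors have the longest bars in the 2 directions. The lists were chosen with earlier results of these data known.

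The long HF conceptuses, all 10 in the first numbering series, give the level of these genes in HF conceptuses labelled long. They were left out of the fit, since some HF recipients gave both a long and a short conceptus, and were not tested against SF here. The first series held 7 of the 10 SF and 3 of the 7 HF short libraries, and the library medians below are not adjusted for it. PRDX6 had a median of 234 CPM in the 10 long HF libraries (157 to 466), beside 447 CPM in the SF and 244 CPM in the HF short libraries. HMOX1 was at 22.9 CPM (7.77 to 106), ELOVL6 at 654 CPM (463 to 838), GATA3 at 102 CPM (48.1 to 204) and USP22 at 163 CPM (131 to 245). In these 5 genes the long HF median was nearer to the HF short than to the SF median, and the long HF and SF ranges overlapped. In sterol pathway genes it was at the SF level: HMGCS1 was at 777 CPM in long HF, 772 CPM in SF and 439 CPM in HF short libraries, and FDPS at 174, 173 and 126 CPM. FDFT1 (145, 144 and 94.0 CPM) and MVK (44.5, 43.3 and 37.6 CPM) had the same order. These genes are examples, and others varied. In the same order of groups, APOE (232, 318 and 130 CPM) and C2H2orf72 (21.8, 25.9 and 15.2 CPM) had a long HF median nearer to SF. HNF4A (27.9, 37.0 and 20.4 CPM) and MTTP (8.05, 15.4 and 6.26 CPM) had it nearer to HF short.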

How the data were processed

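The authors deposited 1 table of read counts per gene for all 52 libraries, from total RNA made into libraries with a strand-marking kit, per the labels' protocols. HISAT2, StringTie, edgeR and the genome build UMD3.1 are named in the submitters' processing notes, with tool versions not given in the sources used here. Table entries without a gene name (1020) were left out.

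Counts were summed per recipient, and 7 SF were compared with 6 HF short recipients with edgeR 4.0.16 (R 4.3.3), using filterByExpr (minimum count 10, minimum total 15), TMM scaling, a quasi-likelihood test and Benjamini-Hochberg adjustment, called at an adjusted p under 0.05. The covariate was the share of a recipient's libraries in the second numbering series. The p-values test the SF against HF short difference, judged against the spread between recipients. Alternatives used DESeq2 1.42.0, limma 3.58.1 (voom), single libraries, other scalings and filters, length, single numbering series and each recipient left out.

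Fewer than 20 genes were called, so the named genes are the 10 each way with the smallest p whose mean reached 5 CPM in the higher group. The members and the 26 gene lists were chosen with earlier results of these data known. Gene names follow the table, and LOC identifiers were matched by gene ID to RefSeq (ARS-UCD2.0, names only). Genes with near-identical copies, such as the interferon tau, pregnancy-associated glycoprotein and Kunitz protein families, have uncertain counts.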

Additional observations from a re-analysis of the deposited data

Results flagged for a closer look

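Of the 40 groups of recipient values examined (20 named genes, SF and HF short), 7 had 1 recipient whose gap to the nearest other exceeded Dixon's 95% critical value. Chance flags about 1 in 20 groups where values are independent and normally distributed. The 20 genes share the same recipients and were picked by p, so 7 of 40 cannot be set against that rate. In SF, LOC100847413 (MEG8) was at 122 CPM in recipient 903, against 8.42 to 34.2 CPM in the others. FOXO4 was at 1.55 CPM in SF recipient 782, against 0.377 to 0.883 CPM, and at 22 CPM in HF recipient 971, against 1.73 to 5.79 CPM. RNASET2 was at 16.9 CPM in SF recipient 778, against 7.58 to 11.4 CPM, and BLCAP at 17.7 CPM in SF recipient 748, against 20.3 to 21.8 CPM. OLFML2A was at 15.1 CPM in HF recipient 971, against 0.843 to 5.60 CPM, and USP22 at 232 CPM in HF recipient 985, against 138 to 166 CPM. HF recipient 971 was thus far above the others in both FOXO4 and OLFML2A.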

How the results depend on the processing

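No paired analysis was possible because SF and HF short recipients are different animals and their replicate numbers only name them. The count of called genes was 0 in every alternative except DESeq2 (137) and the fits without 1 recipient (0 to 1). The 1 call came without SF recipient 903 and was LOC100298573 (-8.29 ± 1.03, edgeR adjusted p = 0.0395, and -5.58 ± 1.96 with all recipients), which is outside the rule for named genes. The number of genes at an unadjusted p under 0.05 was 846 within the first numbering series, 774 with length as a covariate in 11 recipients and 746 in the same 11 without it, a fit added after the data were seen. It was 909 to 1846 with 1 recipient left out, lowest without SF recipient 903 and highest without HF recipient 753. All 20 named genes kept their direction in every alternative. They were picked by p and the alternatives use the same libraries, so this is no separate support for them. GATA4 turned to -0.068 with the shorter conceptus of each recipient, -0.055 without the covariate and -0.11 to 0.21 with 1 recipient left out. GATA6 turned to 0.022 with the longer conceptus, 0.057 within the first series and -0.14 to 0.070 with 1 left out. SOX17 turned to -0.75 within the first series, -0.02 in the 11 recipients, -0.013 without the longest, 14 cm conceptus and -0.24 to 0.75 with 1 left out, and CDX2 to -0.17 within the second series. In the fit of the second series alone these list medians moved: hypoblast 0.34, lipid uptake 0.26, ER stress -0.12, hypoxia -0.24, imprinted 0.037, endolysosomal -0.10 and red blood cell -0.18. The antioxidant median was 0.19 with 17 libraries and 0.21 in limma-voom with a recipient block, where the red blood cell median was -0.054. The secreted product median was -0.76 with the longer conceptus, the binucleate and glycolysis medians -0.29 and 0.15 within the first series, and the mesoderm median 0.17 with no filter. The cause of these changes was not tested. The median 95% interval of 0.49 to either side limits what could be resolved.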
